A study of Mus musculus with 6 samples.

Results

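The comparison sets ventral prostates of old wild type mice, 15 months old, against those of young mice of 2 transgenic lines, 2.5 months old. It rests on 1841 of the 41174 probes that are no controls on the array, which stand for 1531 named genes. They are the probes whose red signal was well above background on both old wild type arrays after spots flagged as outliers had been taken out. The design text calls the 2 arrays of a group independent samples. Old wild type RNA was hybridised on 2 arrays, RNA of line fl26 on 2 and RNA of line svb9 on 2, and RNA of wild type mice at 2.5 months was the green (Cy3) partner on all 6 arrays. All mice had the FVB background. Line fl26 carries 15-LOX2 and line svb9 carries 15-LOX2sv-b, a splice variant of it. The old mice carried neither transgene, so that age and genotype both differ between the groups and cannot be told apart. By the sample labels each RNA came from a pool of 3 mice, whereas the design text speaks of lobes combined from 6 mice, and it was not settled which holds. Each value is the log2 of red (Cy5) over green, and the difference between the old mean and the mean of both lines takes out a dye effect that all arrays share.

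The ventral prostate of the mouse is an androgen-dependent gland whose luminal epithelial cells make and secrete large amounts of a few proteins, among them spermine-binding protein (Sbp) and the protease inhibitor Spink1. 15-LOX2 is a lipoxygenase that oxygenates arachidonic acid to a hydroxy fatty acid and is known from the human prostate epithelium. Ageing of the rodent prostate is known for changes of the epithelium, the stroma and resident immune cells.

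The red channel was far weaker on the old wild type arrays than in most transgenic hybridisations. Red signal was well above background for 3289 and 13791 probes on the 2 old wild type arrays, against 27490 and 17850 on the fl26 arrays and 28170 and 14827 on the svb9 arrays. Green signal was well above background for 25147 to 30722 probes on all 6. The 1841 probes had a median red intensity of 116.2 and 438.9 on the old arrays, where the red background was 78. In the same probes the median was 3097 and 772.7 on the fl26 arrays and 3069 and 550.1 on the svb9 arrays. Outlier flags fell on 15.7% and 10.6% of bright red probes on the old arrays, against 0.284% and 0.275% for fl26 and 0.071% and 1.32% for svb9. Outlier flags therefore move with the group. Red signal does so less closely, as the second old and second svb9 arrays were near each other. The part of either in the differences below was not tested. With 2 arrays against 4, the smallest two-sided p that an exact permutation test over arrays allows is 0.0667.

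**Figure D1:**
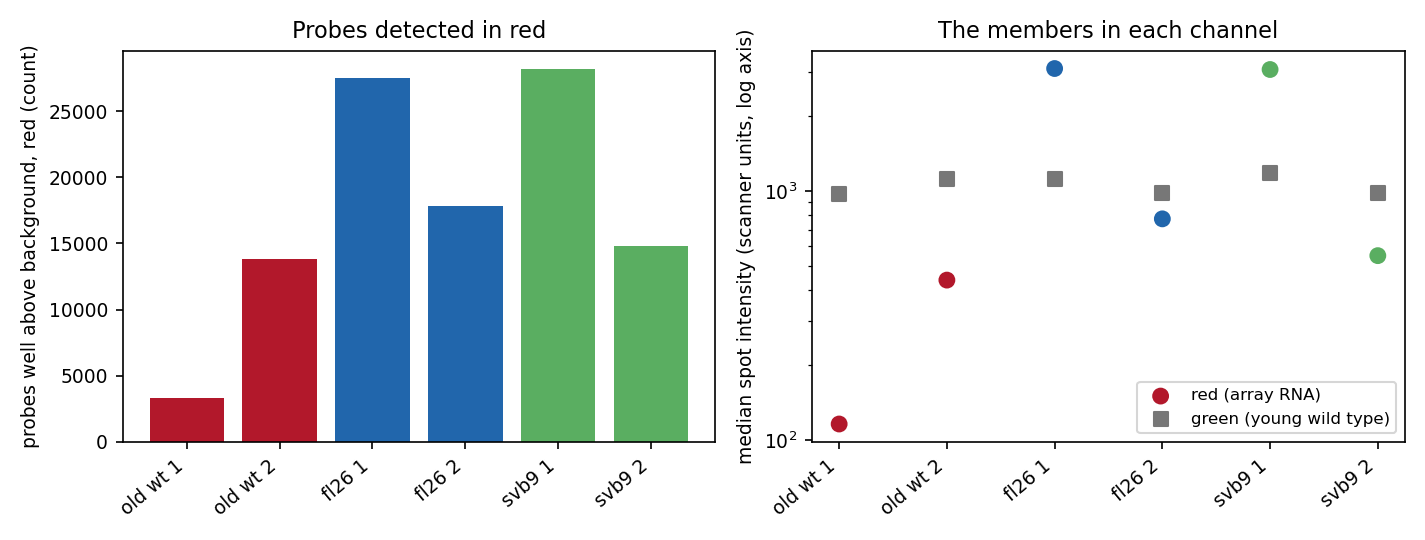
Number of probes with red signal well above background on each array (left, bars from 0) and median intensity of the 1841 probes in red and in green (right, scanner units on a log axis). The first old wild type array has 3289 detected probes and a median red intensity of 116.2, whereas the green medians of all arrays lie between 975.1 and 1183.

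The threshold for membership fell on the first old array. Another 10045 probes were well above background on the second old array alone, with a median red intensity of 85 on the first, and 10 probes were so on the first alone. Before outlier spots were taken out, 3203 probes had the flag on both old arrays, of which 1128 were outliers on 1 old array and 234 on both. Of the 1841, 1828 were well above background in red on all 6 arrays and 1801 had a value on each. Feature extraction fell on 3 dates, and the old arrays shared a date with the second fl26 array and with the second svb9 array. Neither group nor date ordered the arrays. Over the 1841 probes, r between arrays of 1 group was 0.57 for old wild type, 0.26 for fl26 and 0.12 for svb9. Between arrays of 1 date it was 0.25 for the first old and second fl26 arrays, 0.67 for the second old and second svb9 arrays, and 0.42 for the first arrays of both lines. The highest r, 0.74, was between the second fl26 and second svb9 arrays, which share neither group nor date. The second old and second fl26 arrays, also of different group and date, had 0.63. The highest r thus lay among the second arrays of the groups. The first arrays did not go together in this way, as the first old array had -0.2 with the first fl26 and -0.25 with the first svb9 array. These correlations share the green channel and describe the arrays only.

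The labelled tissue was checked against its markers, of which Sbp and Spink1 were among the brightest spots of the members, both saturated. Spink1 is also on the list of other lobes and the seminal vesicle used below, so it does not mark the ventral lobe alone. Of 20 luminal epithelial markers with a probe, 15 and 19 were well above background in red on the old arrays, against 20 on each transgenic array. Of 18 basal epithelial markers, 1 and 13 were so on the old arrays, against 18 and 16 for fl26 and 18 and 15 for svb9. Genes of other prostate lobes and the seminal vesicle were above background for 6 and 8 of 16 on the old arrays, and for 8 to 11 on the transgenic arrays. In pooled tissue, fewer cells of a type and less RNA per cell cannot be told apart.

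No probe passed an adjusted p of 0.05 between old wild type and both lines. The call rate was 0% over the 27622 probes with a test (limma, Benjamini-Hochberg over all of them), and 0 of the 1841 members were called. The same counts of 0 held for old wild type against fl26 alone and against svb9 alone. At an unadjusted p under 0.05, 455 of the 1841 members differed, or 24.7%, against 7.67% of all probes tested. Of these, 417 members were higher in old wild type, 22.7% against a background of 4.65%, and 38 were lower, 2.06% against 3.02%. Against fl26 alone it was 421 members, 22.9% against 7.74%, and against svb9 alone 342, 18.6% against 4.71%. Between fl26 and svb9, where old wild type plays no part, it was 66 members, 3.59% against 2.18%. Members had been chosen for bright red signal on the old arrays, a choice that by itself favours high old values, so the excess of higher members is a description and supports nothing.

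The median absolute difference over the members was 0.22 on the log2 scale, with a median standard error of 0.17. The 2 old arrays lay a median of 0.33 apart, the fl26 arrays 0.30 and the svb9 arrays 0.22. The median signed difference was 0.15, with 69% of members higher in old wild type, against -0.01 and 45.9% over all tested probes. With each array's ratios centred on the median in place of loess, only 4.18% of members lay higher, with a median of -2.3 against -0.48 over all tested probes. The direction of most members therefore depends on the intensity-dependent normalisation. With outlier spots kept, the median was 0.03 over the 3203 probes with the flag, and 53.6% of them lay higher. Without the first old array 57.1% of members lay higher, and without the second 76%. Both old values lay above all 4 transgenic values for 456 of the 1801 members with full values, 25.3% against 8.73% of all probes, and below them for 65, 3.61% against 9.3%.

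Within dates the 2 old arrays gave different pictures. The first old array exceeded the second fl26 array by a median of 0.35 over the members, and the second old array exceeded the second svb9 array by a median of 0.09. Both within-date differences had the sign of the overall difference for 1023 of 1811 members, or 56.5%. Among 1803 members without a saturated red spot, 889 were higher in old wild type on both dates and 195 lower on both.

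**Figure D2:**
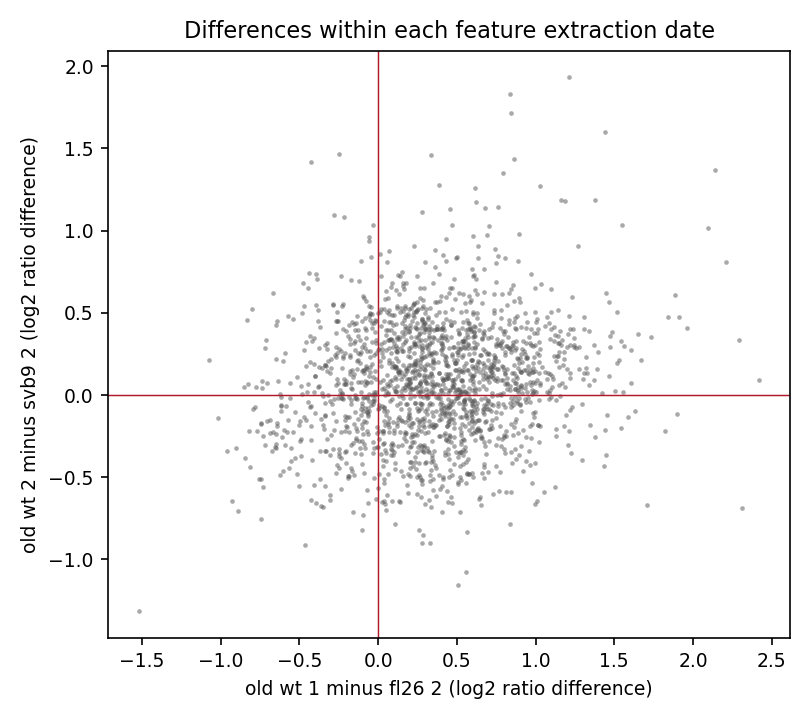
Difference of log2 ratios within the date shared by old wild type array 1 and fl26 array 2 (horizontal) against that within the date shared by old wild type array 2 and svb9 array 2 (vertical), for 1803 members with no saturated red spot, 1 point per probe. Of these, 889 lie at the upper right, 195 at the lower left, 513 at the lower right and 206 at the upper left.

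A gap of 2-fold or more between every old array and every transgenic array was seen for 7 member probes, or 0.389%, against 0.0269% of all probes, all of them higher in old wild type and none lower. With median centring 0 members lay higher by this gap and 111 lower. However, 4 of the 7 were saturated and have no measured ratio. They are both probes of Sbp, the probe of Spink1 and a probe named Ptprz1. Unsaturated were Stra6, the RNA helicase gene Ddx42 and a transcript named AK086528 in the file, of which the last 2 were chosen after their values were seen. Ddx42 had log2 ratios of 1.98 and 1.67 in old wild type, against -0.53 and 0.43 in fl26 and 0.51 and 0.64 in svb9. For AK086528 the old values were 2.0 and 2.35, against -0.49 and 0.56 in fl26 and 0.62 and 0.76 in svb9. Neither passed, with differences of 1.56 ± 0.26 (SE) and 1.82 ± 0.29 and adjusted p values of 0.419 and 0.39.

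Stra6, the cell surface receptor for retinol-binding protein through which cells take up vitamin A, had the smallest unadjusted p of all members (1.21e-05). Its log2 ratios were 1.81 and 1.5 in old wild type, against -0.66 and -0.34 in fl26 and 0.32 and 0.13 in svb9. The groups did not overlap, and the difference of 1.79 ± 0.14 (SE), or 3.45-fold, did not pass with an adjusted p of 0.335. Raw red intensities were 248 and 2756 in old wild type, against 4053 and 1840 in fl26 and 5705 and 1741 in svb9, while green was 1314 to 3353 throughout. The old RNA thus gave a brighter red spot than both transgenic RNAs on the second array of each group and a much dimmer one on the first.

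The promoter of Stra6 is shown because this gene had the widest unsaturated gap among members with a RefSeq name, which AK086528 lacks. That of Ang is shown because its ratio separated the lines. Both windows run from 250 bases before to 50 bases after a gene start in RefSeq (GRCm38.p6), and lie at chr9:58128838-58129137 on the plus strand for Stra6, the first of 4 starts listed, and at chr14:51090827-51091126 on the plus strand for Ang. Capitals mark the letters GGGCGG of a GC box and AGAACA, which is only a part of an androgen response element. They were found on the opposite strand in every case and so are printed as their reverse complements.
Stra6: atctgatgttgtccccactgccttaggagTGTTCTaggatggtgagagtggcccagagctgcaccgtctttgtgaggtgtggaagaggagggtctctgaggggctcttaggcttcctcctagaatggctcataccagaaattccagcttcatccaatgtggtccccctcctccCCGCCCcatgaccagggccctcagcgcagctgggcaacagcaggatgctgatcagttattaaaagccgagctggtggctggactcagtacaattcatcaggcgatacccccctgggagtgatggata
Ang: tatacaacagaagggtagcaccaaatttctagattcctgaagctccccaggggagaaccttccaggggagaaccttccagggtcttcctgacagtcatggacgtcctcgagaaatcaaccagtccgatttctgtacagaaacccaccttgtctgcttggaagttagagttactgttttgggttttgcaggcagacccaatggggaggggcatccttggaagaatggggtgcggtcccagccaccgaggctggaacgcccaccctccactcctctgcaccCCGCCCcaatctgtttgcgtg
On either strand, GGGCGG occurs in 35.7% and AGAACA in 19% of the 32851 promoter windows of the table, and TATAAA, which neither window holds, in 13.6%. These matches describe the letters only.

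Other members of the retinoid list stood near the lines. Crabp1, a retinoic acid-binding protein of the cytosol, had ratios of 0.50 and 0.12 in old wild type, against 0.47 and 1.32 in fl26 and -0.07 and 0.06 in svb9. Its difference was -0.14, within the gap between arrays of 1 group. The list had 3 genes among the members, with a median of -0.01, and none was called.

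Ing5, whose protein reads histone marks for acetyltransferase complexes, came second by unadjusted p. It had ratios of 1.08 and 1.38 in old wild type, against -0.70 and -0.30 in fl26 and 0.30 and 0.20 in svb9, a difference of 1.36 ± 0.15 (SE) with an adjusted p of 0.364. The other probes of Ing5 had differences of -0.11 and -0.08, but neither was well above background on both old arrays. Stra6 and Ing5 also shared their order, with old wild type highest, svb9 next and fl26 lowest on every array. Their gap between fl26 and svb9 was -0.72 and -0.74, with adjusted p values of 1.

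Sf3b2, a subunit of the splicing factor complex that recognises the branch site, had ratios of 0.98 and 0.88 in old wild type, against 0.06 and 0.08 in fl26 and 0.17 and 0.29 in svb9. The difference of 0.78 ± 0.09 (SE), or 1.71-fold, was seen against both lines and on both shared dates (0.90 and 0.59). For Pex13, a docking protein for import into peroxisomes, the old values were 0.96 and 0.80 and the transgenic values 0.09 to 0.22. Its raw red intensities were low, at 107 and 142 in old wild type, against 287 and 130 in fl26 and 293 and 118 in svb9, and the scanner software's log ratios gave a difference of 1.89 in place of 0.74. A second Pex13 probe gave a difference of 0.58 and the third -0.11. Zfp932, a zinc finger protein gene, had 0.89 and 0.74 in old wild type, against 0.14 and 0.14 in fl26 and 0.06 and 0.06 in svb9. None of the 3 passed, each with an adjusted p of 0.364.

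The 5 genes with the smallest unadjusted p on the lower side had gaps of less than 2-fold, and none passed. Ctsb, the lysosomal protease cathepsin B, had ratios of -0.70 and -0.58 in old wild type, against 0.27 and 0.14 in fl26 and 0.05 and -0.20 in svb9. Its difference was -0.71 ± 0.11 (SE, adjusted p = 0.39), and a second Ctsb probe, not well above background on either old array, gave -0.06. Txndc15, a membrane protein with a thioredoxin domain, had -0.51 and -0.43 in old wild type, against 0.15 and 0.24 in fl26 and -0.01 and 0.09 in svb9, with the same adjusted p. In these genes the old arrays lay below every transgenic array, beside 3.61% of members and 9.3% of all probes.

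Pomgnt2, an enzyme that adds sugar to dystroglycan, had a difference of -0.46, and Zcrb1, an RNA-binding protein of the minor spliceosome, one of -0.52. Lurap1l had a difference of -0.57, with -0.08 and -0.12 in old wild type, against 0.62 and 0.74 in fl26 and 0.41 and 0.11 in svb9. Its old values were thus near those of young wild type, and the transgenic values above it. The adjusted p was 0.504 for each of these 3.

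**Figure D3:**
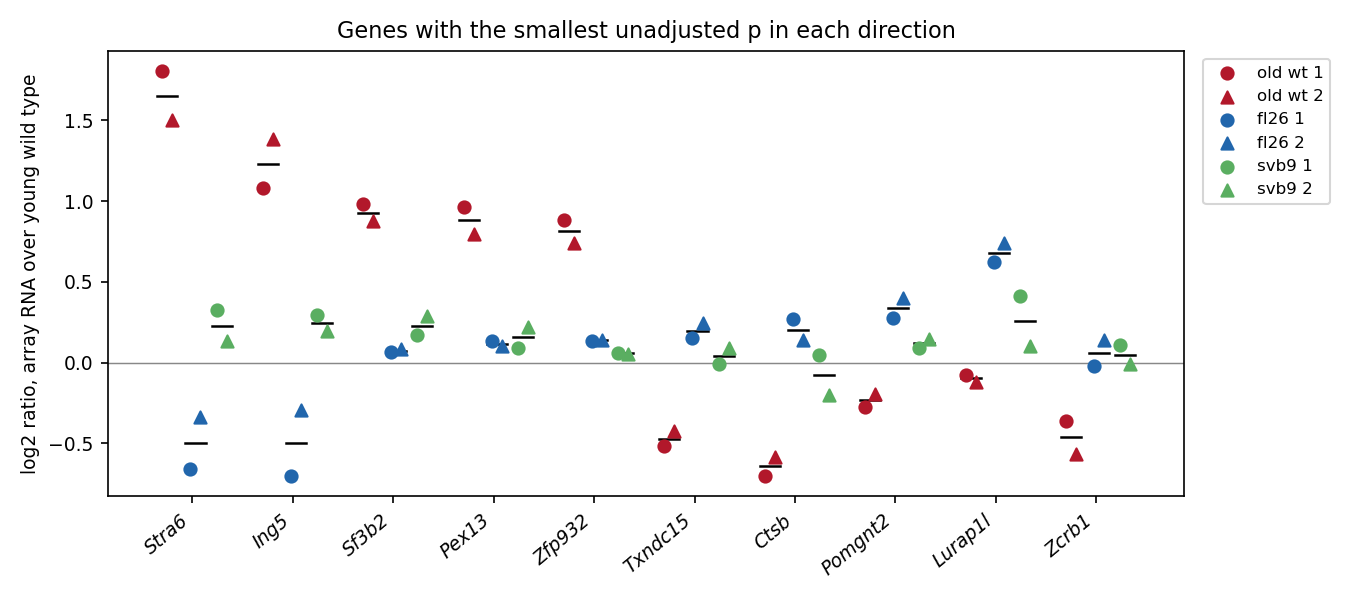
Log2 ratio over young wild type on each array (points) and group means (bars) for the 5 genes with the smallest unadjusted p on either side. For each gene both old wild type points lie outside the range of the 4 transgenic points, from 1.81 and 1.5 for Stra6 to -0.36 and -0.57 for Zcrb1, and none of the genes passed the threshold.

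Across the named genes, probes for the same gene often disagreed. Of 57 named genes among the members, 28 had another measured probe, 39 probes in all. The difference had the same sign in 21 of these and the opposite sign in 18. In 4 of the 39 the old values lay apart from all transgenic values in the same direction. Over all probes, 8.73% had both old values above all transgenic values and 9.3% below, so these 4 show no agreement beyond that share. Only 6 of the 39 were well above background on both old arrays, and 10 were so on neither.

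The 2 most abundant secretory transcripts could not be compared. Sbp, the main androgen-dependent protein of ventral prostate fluid that binds spermine, was saturated in green on all 6 arrays and in red on 5. Its red intensity was 23229 and 65207 in old wild type, against 65204 to 65206 in all transgenic arrays, and green was 65303 to 65314. Spink1 had red intensities of 9957 and 65207 in old wild type, against 65203 to 65206 in the lines. Only the first old array gave an unsaturated red value, so no fold is given.

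Other secretory genes had values on fewer old arrays. Probasin (Pbsn) and beta-microseminoprotein (Msmb) had outlier spots on the first old array and so were no members. On the second old array their ratios were 0.56 and 0.30. For Pbsn the lines had -0.67 and 0.95 (fl26) and -1.34 and 1.26 (svb9), and for Msmb -1.16 and 0.36 (fl26) and -1.22 and 0.38 (svb9). Red was saturated for both genes on the first fl26 array and for Msmb on the first svb9 array, so that these ratios are not measured values and the old level cannot be placed among the lines. Azgp1, a zinc-binding glycoprotein, had -0.42 on the second old array, against -0.78 and -0.71 in fl26 and 0.10 and -0.41 in svb9.

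Dmbt1, a secreted scavenger receptor protein, had 1.09 and 0.60 in old wild type, against -0.22 and 0.18 in fl26 and -0.20 and 0.55 in svb9. Its raw red intensities were 110 and 117 in old wild type, against 133 and 105 in fl26 and 134 and 121 in svb9, all near the background. The difference of 0.77 had an adjusted p of 0.578. Low spots of this kind include the 2 chemokine genes among the members, chosen here after their values were seen. Ccl20, which attracts dendritic cells and lymphocytes, had a difference of 1.15 with raw red intensities of 126 and 146 in old wild type, against 157 and 129 in fl26 and 147 and 129 in svb9. Cxcl2, which attracts neutrophils, had a difference of 0.68 with 104 and 104 in old wild type, against 114 and 96 in fl26 and 115 and 100 in svb9. For these genes a ratio that differed came from red values that hardly did.

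Luminal epithelial markers had 7 genes among the members, of which 5 were higher in old wild type and 2 lower, with a median difference of 0.51 against -0.02 over all 15433 genes tested. The genes among the members had a median of 0.13, and all 20 luminal markers tested, members or not, had 0.27. None passed, and 5 had an unadjusted p under 0.05. On the higher side that p was reached by 21.3% of the genes among the members and by 5.11% of all genes tested, so that a list of members is read against the share among members. Foxa1, a pioneer factor that opens chromatin in luminal cells, had ratios of 1.05 and 0.58 in old wild type, against 0.11 and -0.47 in fl26 and 0.18 and 0.08 in svb9. The difference was 0.84 ± 0.20 (SE, adjusted p = 0.507). Krt7, a keratin of simple epithelia, had 0.55 and 0.96 in old wild type, against 0.41 and 0.12 in fl26 and 0.26 and 0.02 in svb9, but a second probe gave 0.13. Cd24a, a small surface glycoprotein of luminal cells, had 0.43 and 0.36, against -0.22 and -0.38 in fl26 and 0.00 and 0.11 in svb9. Cdh1, the adhesion protein E-cadherin, had 0.51 and 0.05, against -0.29 and -0.79 in fl26 and 0.06 and -0.04 in svb9, and here the groups overlapped.

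The paired keratins of luminal cells each lost 1 old spot to an outlier flag. Krt18 had 0.75 on the second old array, against -0.10 and -0.17 on the second arrays of fl26 and svb9. On the first array of each line its red signal was saturated, so that the ratios there, -0.33 and -0.29, are not measured values. Krt8 had 0.51 on the first old array, against -0.16 and 0.08 in fl26 and 0.04 and -0.15 in svb9. With saturated spots set to missing the Krt18 difference was 0.89 (adjusted p = 0.514), and that of Krt8 was 0.56 (adjusted p = 0.537). Both rest on 1 old spot and did not pass. With the log ratios of the scanner software, Krt8 turned to -0.23.

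Genes under androgen control that were members lay close between the groups. The list had 5 members with differences from -0.10 to 0.19. Fkbp5, a chaperone partner of steroid receptors, had 0.31 and 0.24 in old wild type, against 0.02 and -0.03 in fl26 and 0.23 and 0.11 in svb9. Its other probes, each well above background on 1 old array only, gave differences of 0.14 and 0.51. In the last, both old values lay above all transgenic values. Tmprss2, a surface serine protease, differed by 0.18, with old values of 0.38 and 0.43 beside 0.36 and 0.41 in fl26 and 0.10 and 0.04 in svb9. Cdkn1a, a cell cycle inhibitor, and Alox15, a lipoxygenase, were not well above background on either old array. No value was had for Alox15b, the mouse gene named for the transgene's enzyme, and the transgenes themselves were not checked.

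Polyamines are a main product of the gland. Odc1, the rate-limiting enzyme of their synthesis, had 0.67 and 0.66 in old wild type, against -0.23 and 0.04 in fl26 and -0.01 and 0.35 in svb9, a difference of 0.63 ± 0.14 (SE, adjusted p = 0.504). Its other probes gave -0.03 and 0.25. Paox, which oxidises acetylated polyamines, had 0.14 and 0.17, against -0.32 and -0.09 in fl26 and -0.17 and -0.37 in svb9, and its other probe -0.14. The list's 4 members include the saturated Sbp.

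Class I genes of the major histocompatibility complex (MHC) and their antigen processing had 7 members, all higher in old wild type in the loess-normalised values, with a median of 0.49 and a range from 0.27 to 0.70. Over all 21 genes of this list that were tested the median was 0.17. None passed, 4 had an unadjusted p under 0.05 (21.3% of the genes among the members did, on the higher side), and in 5 both old values lay above all transgenic values (25.3% of members). H2-T23, a nonclassical class I heavy chain, had 0.73 and 0.35 in old wild type, against -0.41 and -0.18 in fl26 and -0.13 and 0.07 in svb9. Tap2, a subunit of the peptide transporter into the endoplasmic reticulum, had 0.30 and 0.31, against -0.36 and -0.31 in fl26 and -0.24 and -0.07 in svb9, a difference of 0.55 ± 0.09 (SE, adjusted p = 0.446). H2-Q5, a further class I heavy chain, had a difference of 0.61 (adjusted p = 0.504). Class I heavy chains are close copies of each other, so a probe may bind several. With median centring the 4 class I genes named here had differences from -2.85 to -1.41, as the members as a whole did.

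H2-Q10, a class I gene known from the liver, did not separate the groups. Its ratios were 0.02 and -1.44 in old wild type, against -2.45 and -1.69 in fl26 and 0.10 and -0.77 in svb9, so that its mean lay above fl26 and below svb9. Its 2 other member probes differed, with 0.58 and 0.11. Immune cells themselves were hardly represented among the members. MHC class II genes and T and NK cell markers had none, and B and plasma cell markers and macrophage markers had 2 each, with medians of 0.11 and -0.56, the second pair holding Ctsb. On the first old array 0 of 13 MHC class II genes, 0 of 23 T and NK cell markers and 4 of 26 macrophage markers were well above background in red.

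Of 27 splicing factors and RNA-binding hnRNPs, 20 were higher in old wild type and 7 lower, with a median of 0.20, and the medians within the shared dates were 0.43 and 0.27. Over all 65 splicing genes tested the median was 0.03. None passed, 8 had an unadjusted p under 0.05 on the higher side, beside 21.3% of the genes among the members, and 10 had both old values above all transgenic values, beside 25.3% of members. Beside Sf3b2 these included Snrnp70, the core protein that binds the first small nuclear RNA of the spliceosome, with 0.54 and 0.88 in old wild type, against 0.18 and 0.07 in fl26 and -0.05 and -0.15 in svb9. Snrpf, an Sm ring protein, had 0.80 and 0.52, against 0.07 and -0.06 in fl26 and 0.01 and 0.25 in svb9. Ptbp1, a repressor of exon inclusion, differed by 0.52. A second probe gave 0.12 for Snrnp70, -0.23 for Snrpf and 0.00 for Ptbp1.

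**Figure D4:**
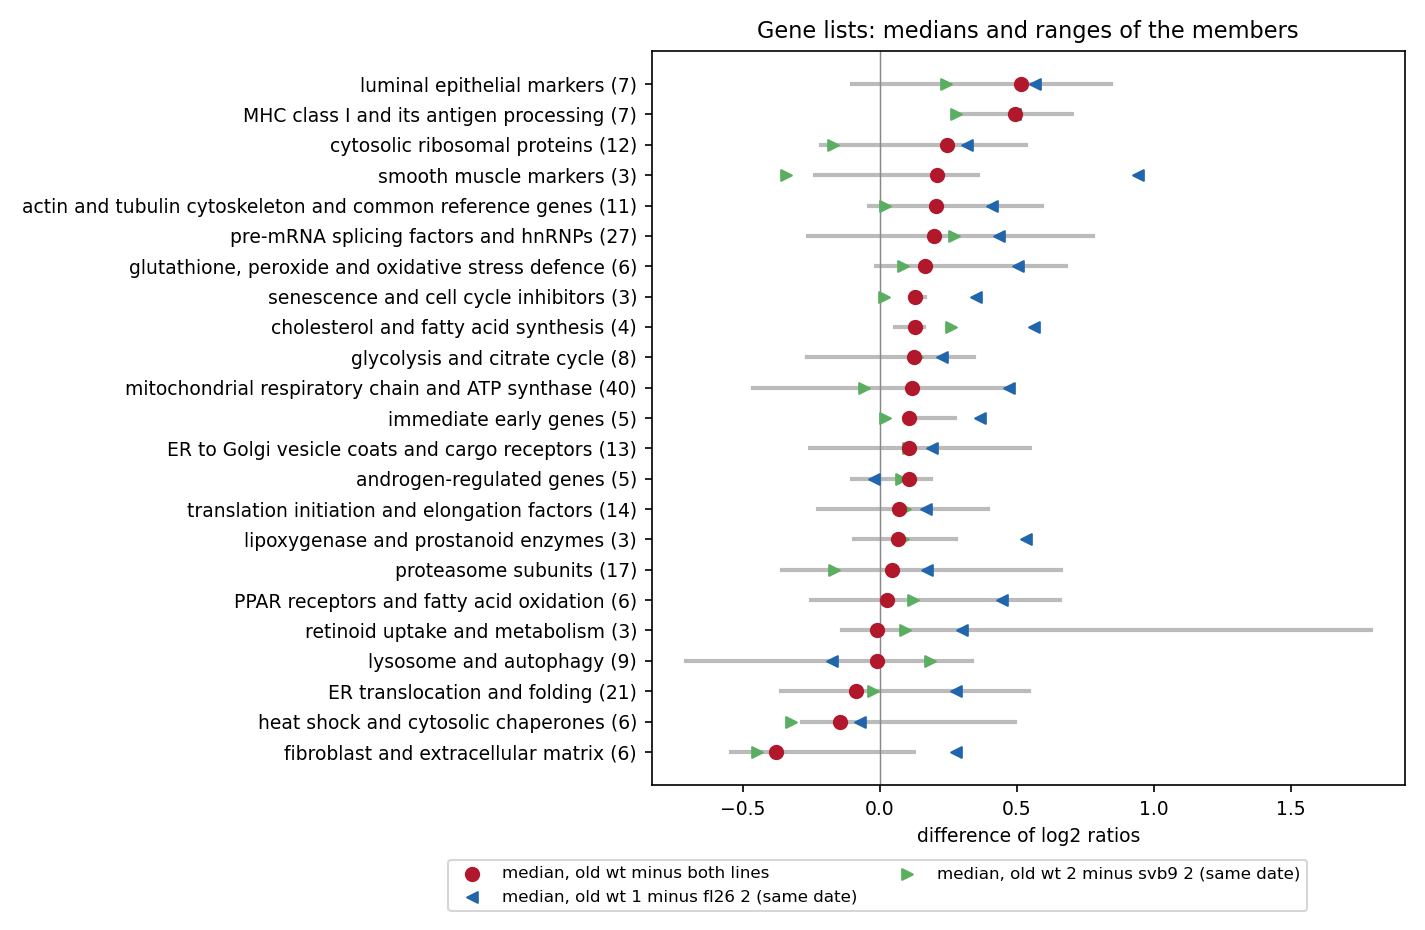
Median (red circle) and range (grey bar) of the difference of log2 ratios, old wild type minus both lines, for the 23 lists with 3 or more member genes and no saturated gene, with the number of members in brackets. Triangles give the medians within each feature extraction date, and for ribosomal proteins they lie on both sides of 0, at 0.318 and -0.17.

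For ribosomal proteins and respiratory chain subunits the within-date medians lay on both sides of 0, and old array, line and date differ together between these medians. Of 12 ribosomal protein genes, 10 were higher in old wild type and 2 lower, with a median of 0.25. The median was 0.32 for the first old array over the second fl26 array and -0.17 for the second old array over the second svb9 array. Rpl28 had 0.76 and -0.57, against -0.17 and -0.45 in fl26 and -0.15 and -0.35 in svb9. Only the first old array lay above the lines, and without it the difference of Rpl28 was -0.29.

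Of 40 genes of the respiratory chain and ATP synthase, 25 were higher and 15 lower, with a median of 0.12 and within-date medians of 0.47 and -0.06. Cox5a, a subunit of cytochrome oxidase, had 0.84 and -0.64 in old wild type, against -0.14 and -0.71 in fl26 and -0.24 and -0.44 in svb9. The difference was 0.48, and -0.26 without the first old array. Its sister subunits Cox5b and Cox7b had differences of -0.46 each. A second Cox7b probe, not well above background on either old array, gave 0.02. Ndufb10, of complex I, had a difference of 0.44. Proteasome subunits were split 9 to 8, with Adrm1, a ubiquitin receptor, at 0.66 and Psmd11, a lid subunit, at -0.35. A second Adrm1 probe, well above background on 1 old array only, gave -0.08.

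Translation factors had 10 of 14 members higher, with a median of 0.07, and Eif2s3x, a subunit of the initiator factor, differed by 0.39. Other Eif2s3x probes, each well above background on 1 old array only, gave -0.006 and -0.005. Fatty acid oxidation and PPAR genes had 4 of 6 higher, with Etfb, an electron carrier, at 0.66 and Acadvl, which starts the oxidation of very long chains, at -0.25. For Etfb the old values were 0.74 and -0.20, and without the first old array its difference was 0.19. Ldha, the lactate dehydrogenase of glycolysis, differed by 0.34, by 0.61 from fl26 and by 0.08 from svb9, and the test between the lines gave an adjusted p of 1.

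Genes of the secretory route were mixed. Of 21 genes of endoplasmic reticulum translocation and folding, 9 were higher and 12 lower, with a median of -0.09. Sec61g, a subunit of the translocation channel, had 1.0 and 0.40 in old wild type, against -0.01 and 0.57 in fl26 and -0.11 and 0.16 in svb9, while Pdia4, a disulfide isomerase, differed by -0.36. Sec61g turned to -0.03 with the log ratios of the scanner software. Of 13 coat and cargo receptor genes between endoplasmic reticulum and Golgi, 8 were higher, with a median of 0.11.

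Lman1, a cargo receptor for glycoproteins, had 0.33 and 0.18 in old wild type, against -0.06 and -0.25 in fl26 and -0.28 and -0.42 in svb9, a difference of 0.51 ± 0.11 (SE, adjusted p = 0.504). Its second probe gave -0.29. Copb2, of the coat that carries vesicles back from the Golgi, differed by 0.55 and Kdelr1, which retrieves escaped endoplasmic reticulum proteins, by 0.44. In all 3 genes, named for the large differences in their list, both old values lay above the lines. This held for 4 of the list's 13 members, beside 25.3% of all members and 8.73% of all probes.

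Stress and defence genes went both ways. Of 6 heat shock and chaperone genes, 5 were lower in old wild type and 1 higher, with a median of -0.14. Hspa9, the mitochondrial chaperone of the Hsp family, was the 1 above, with 0.61 and 0.35 in old wild type, against -0.03 and 0.04 in fl26 and -0.04 and -0.02 in svb9, but its second probe gave -0.06. Dnajb6, a co-chaperone, differed by -0.28 with its other probes at -0.23 and 0.36. Of 6 genes of oxidative defence, 5 were higher. Txn1, thioredoxin, had 0.73 and 0.28 in old wild type, against 0.03 and -0.30 in fl26 and -0.03 and -0.40 in svb9, a difference of 0.68. A second Txn1 probe, well above background on 1 old array only, gave 0.08. Prdx2, a peroxide-reducing enzyme, differed by 0.40, with its other probes at -0.10 and 0.13.

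Mt3, a metallothionein, was no member because its red signal was well above background on 1 old array only. It had 0.36 and 0.72 in old wild type, against -0.08 and 0.55 in fl26 and 0.00 and 0.39 in svb9. Lysosome and autophagy genes, Ctsb among them, were split 4 higher to 5 lower, and Lamp2, a lysosomal membrane protein, had -0.19 and 0.15 in old wild type, against 0.36 and 0.46 in fl26 and 0.25 and 0.44 in svb9. Its second probe, with 1 old spot only, gave 0.19.

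Markers of the stroma were few. Fibroblast and matrix genes had 6 members, of which 5 were lower in old wild type and 1 higher, with a median of -0.38 and within-date medians of 0.28 and -0.45. Vim, the filament protein vimentin, had 0.14 and -0.39 in old wild type, against 0.78 and 0.40 in fl26 and 0.24 and 0.09 in svb9. Col1a1 and Col3a1, chains of fibrillar collagens, differed by -0.54 and -0.42. Other probes, well above background on neither old array, gave -0.09 and -0.04 for Col1a1 and -0.11 for Col3a1. For each of the 3 genes the first fl26 array held the highest value of the 6 arrays (0.78, 0.74 and 0.81), and none passed. On the first old array, 10 of 36 genes of this list were well above background in red, against 27 on the second and 34 to 36 in the lines.

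Smooth muscle markers had 3 members with a median of 0.21, and within dates 0.94 and -0.34. Csrp1, a protein of muscle actin bundles, had 0.77 and -0.06 in old wild type, against -0.23 and -0.17 in fl26 and 0.05 and 0.34 in svb9. Cfl1, the actin-severing protein cofilin, is used here as an abundant gene of most cells. It had 0.45 and 0.52 in old wild type, against -0.08 and 0.04 in fl26 and -0.05 and -0.33 in svb9, a difference of 0.59. A second Cfl1 probe, well above background on 1 old array only, gave 0.13. Genes of the cytoskeleton and common reference genes as a list had 8 of 11 members higher, with a median of 0.21. Basal epithelial, complement, and neuroendocrine and nerve markers had no member.

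For a few genes old wild type lay near 1 line and apart from the other. Ang, a secreted ribonuclease of the angiogenin family, had ratios of 1.69 and 1.0 in old wild type, against 1.49 and 1.23 in fl26 and -0.42 and -0.14 in svb9. It differed by -0.02 from fl26 and by 1.62 from svb9. Raw red intensities of Ang were low on the old arrays, at 146 and 222 over a background of 78. They were 1533 and 408 in fl26 and 377 and 129 in svb9. Its paralogue Ang4 had 0.89 and 1.23 in old wild type, against 1.52 and 1.31 in fl26 and -0.40 and -0.19 in svb9. Raw red intensities of Ang4 were 109 and 218 in old wild type, against 842 and 321 in fl26 and 217 and 106 in svb9. The probes of such close paralogues may bind both transcripts, and a second Ang4 probe had a gap of 1.82 between fl26 and svb9. A second Ang probe, with a difference of -0.05 from the mean of both lines, was not above background on either old array. Between fl26 and svb9 the adjusted p was 0.596 for Ang and 0.297 for Ang4, where 0% of 27856 tested probes were called.

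Rb1cc1, which starts autophagosome formation, and Creb3l4, a membrane-bound transcription factor of secretory cells, were no members because only 1 old array was well above background. Rb1cc1 had -0.10 and -0.21 in old wild type, against 2.51 and 2.01 in fl26 and 0.19 and 0.05 in svb9. Its difference from both lines of -1.35 ± 0.16 (SE, adjusted p = 0.364) lay with fl26, at -2.42, rather than svb9, at -0.28. Its 4 other probes gave differences from -1.14 to -0.25. Creb3l4 had -0.47 and -0.77 in old wild type, against -1.71 and -1.54 in fl26 and -0.22 and -0.63 in svb9.

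**Figure D5:**
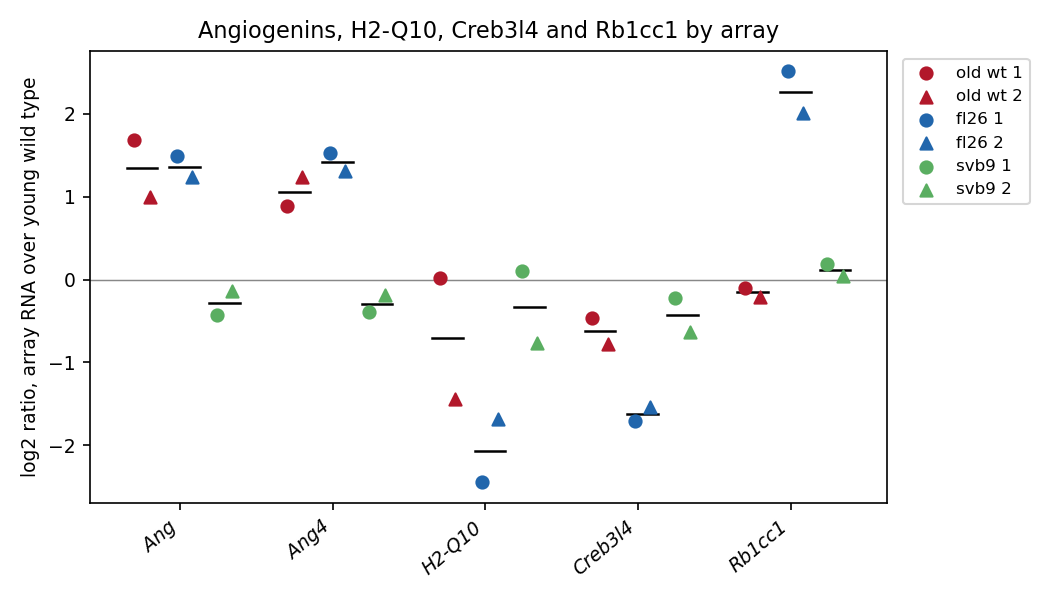
Log2 ratio over young wild type on each array (points) and group means (bars) for 5 genes. For Ang and Ang4 the old wild type points lie near fl26. For Rb1cc1 they lie below all transgenic points, nearer to svb9, and for Creb3l4 with svb9 or between the lines. For H2-Q10 the 2 old points lie at 0.02 and -1.44.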

How the data were processed

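The deposited scanner files hold, per spot and channel, an intensity (spot mean and background median) from Agilent Feature Extraction A.7.5.1 without normalization, and 0 or 1 flags, per the file headers. Their log10 ratios, red over green, had been background-corrected and dye-normalized in that software, per the file headers, and the deposited series table repeats these, rounded. The number of arrays limits the precision.

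From the intensities, background was corrected here by normexp (offset 50), each array normalized by loess, control spots (2256 of 43790) and outlier spots left out and spots of a probe averaged (R 4.3.3, limma 3.58.1, statmod 1.5.0, data.table version 1.17.8). A model with 3 group means on 6 arrays was fitted over 27856 probes well above background on both arrays of at least 1 group in either channel, with Benjamini-Hochberg adjustment and a threshold of 0.05. Standard errors pool the spread of all groups. In simulated data of 26012 probes with 200 changed in old wild type, 60% were recovered at a log2 change of 1, 92% at 2 and 0% at 0.5. The noise drawn was normal and independent between arrays, with each probe's residual spread taken as its true spread. Spread shared between arrays, by date or otherwise, was not simulated, so these rates describe that setting only.

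Names came from RefSeq (GRCm38.p6) for 31050 probes, and 10124 kept the file's name. A gene is represented by its brightest member probe. Named are the 5 genes of smallest unadjusted p on each side, since none passed, up to 4 genes of largest difference for each list with 3 or more members, and 17 genes always, some of which are not reported here. The members, the 42 lists and these rules were chosen with earlier results of these data known. Alternatives covered background, normalization, filters, variance models, left-out arrays, feature extraction date and replicate number.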

Additional observations from a re-analysis of the deposited data

Results flagged for a closer look

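For 3 genes flagged here, every fl26 array and every svb9 array lay on opposite sides of young wild type. The pattern was not particular to them, as Ang4, Ldha and Snrnp70 had it too. Its share over all tested probes was not counted, so it cannot be said to be rare. For Ang4, fl26 minus svb9 was 1.71 on the log2 scale (limma, adjusted p = 0.297). The difference of fl26 minus svb9 was -0.724 for Stra6 and -0.744 for Ing5 on the log2 scale, and old wild type lay above both lines in each. For Ang it was 1.64, and old wild type lay with fl26. The test of this difference did not pass for any of them, with limma's adjusted p at 1 for Stra6 and Ing5 and 0.596 for Ang. The second Ang probe and 1 of the other Ing5 probes were not well above background on either old array.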

How the results depend on the processing

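The count of 0 called members, old wild type against both lines, was 0 under every alternative except the replicate block, which called 8 (among them Stra6, adjusted p = 0.028, and Ing5, 0.0333, and beyond the members Rb1cc1, 0.028). The block called 10 members against fl26, 1 against svb9 and 3 between the lines. No label says that a replicate number marks a pairing, and the deviations of arrays with the same number had r = 0.33 for old wild type and fl26, 0.17 for old wild type and svb9 and 0.61 for the lines. With the date as a term, 3 members were called against fl26 and 2 between the lines. Leaving out 1 array called 0 members in each comparison. The 7 probes apart by 2-fold, all higher in old wild type, became 20 with the scanner software's log ratios, 19 with the series table and 3 with saturated spots missing, all higher, 111 with median centring, of which 0 were higher and 111 lower, and 0 in the red channel alone. With 1 array left out there were 7 to 42, all higher, with 20 without the first old array, 42 without the second and 11 without the second svb9 array. Leaving out the date with no old array, chosen after seeing the data, gave 9 probes, 8 higher and 1 lower, and 0 calls. The cause of these changes was not tested, except that missing saturated spots take out the 4 saturated probes.

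Of the 1529 differences recomputed for 67 named genes, 82 changed sign. With median centring the differences were Stra6 -1.18, Ing5 -0.89, Sf3b2 -2.13, Zfp932 -2.38, Pex13 -0.14, Sbp -0.21, Spink1 -0.83, Ang -0.85, Ang4 -0.80, Foxa1 -2.09, Krt7 -2.31, Cdh1 -2.58, Cd24a -2.50, Fkbp5 -2.01, Tmprss2 -2.15, Odc1 -2.27, Paox -1.59, Rpl28 -2.92, Eif2s3x -1.92, Cox5a -2.98, Ndufb10 -2.89, Adrm1 -2.02, Snrnp70 -1.97, Snrpf -2.20, Ptbp1 -1.84, Sec61g -3.26, Copb2 -2.74, Lman1 -2.82, Kdelr1 -1.52, Hspa9 -1.89, Txn1 -2.86, Prdx2 -2.68, H2-T23 -2.85, H2-Q5 -2.28, Tap2 -1.41, H2-Q10 -2.80, Csrp1 -3.08, Etfb -2.35, Ldha -2.47, Cfl1 -2.10, Mt3 -1.15, Pbsn -1.63, Msmb -1.50, Azgp1 -1.73, Krt8 -4.74, Krt18 -1.15, Alox15 0.0163, Creb3l4 -1.87. With the scanner software's log ratios they were Sec61g -0.0314, Csrp1 -0.00967, Crabp1 0.17, Azgp1 -0.0629, Krt8 -0.23, and in the series table Sec61g -0.0319, Csrp1 -0.00963, Crabp1 0.16, Azgp1 -0.0618, Krt8 -0.23. In the red channel alone they were Rpl28 -0.0162, Sec61g -0.23, Pbsn -0.13, Msmb -0.0704, Azgp1 -0.15. With the date as a term they were Pbsn -1.04, Msmb -0.10, and with the replicate block or without the date that holds no old array Pbsn -0.55, Msmb -0.0648. Without background correction Cdkn1a was 0.0407, with outlier spots kept Csrp1 was -0.0241, and with saturated spots missing Msmb was -0.0678. Leaving out 1 array at a time turned the sign for 8 genes, with ranges of Rpl28 -0.29 to 1.04, Cox5a -0.26 to 1.22, H2-Q10 -0.24 to 1.22, Csrp1 -0.0599 to 0.77, Cdkn1a -0.0396 to 0.0175, Crabp1 -0.35 to 0.0779, Pbsn -0.14 to 1.16, Azgp1 -0.10 to 0.16.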

Other observations

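Cholesterol and fatty acid synthesis genes had 4 members with differences from 0.05 to 0.16, immediate early genes 5 from 0.09 to 0.27, and senescence and cell cycle inhibitor genes 3 from 0.11 to 0.17. Glycolysis and citrate cycle genes had 6 of 8 members higher in old wild type, with a median of 0.13, and lipoxygenase and prostanoid enzyme genes 2 of 3, with a median of 0.07. Proliferation genes had 2 members, at 0.21 and 0.66, and clock genes 1, at 0.34. Interferon response genes had 2 members with a median of -0.14, against 0.15 over all 35 tested, blood and lymphatic endothelial markers 2 with -0.29, skeletal muscle markers 2 with -0.29, erythrocyte markers 1 at -0.35 and metallothionein and zinc transporter genes 1 at -0.16. None of these genes passed the threshold.

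In 4 equal bins of the members by old red intensity, from dim to bright, the median difference was 0.22, 0.02, 0.10 and 0.29.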
